A study of Mus musculus with 24 samples.

Results

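DNA methylation was described here along the Cux2 locus, the gene and 2 kb on either side, in the dentate gyrus of young and aged mice. Of the 694379 CpGs of the deposited table, 299 lay in this window (GRCm38, chr5:121854366-122052102), and they were taken by position alone. Cux2 (ENSMUSG00000042589) spans chr5:121856366-122050102 on the minus strand, so that its start lies at the right end of the window. Methylation had been measured by reduced representation bisulfite sequencing (RRBS), in which DNA is cut with MspI at CCGG, short fragments are sequenced after bisulfite conversion, and a methylated cytosine is still read as a cytosine. The samples were 3 groups of 8 female C57BL/6JRj mice. Young STD mice were 3 months old and lived in standard housing (STD). Aged STD mice were 17 months old and lived in the same housing. Aged ENR mice were also 17 months old and had spent their last 3 months in environmental enrichment (ENR), housing that offers more space, objects and cage mates. Each sample was the micro-dissected dentate gyrus of 1 mouse, and this tissue holds several cell types whose shares cannot be told apart from methylation within a cell type. No transcripts were measured in these samples, so the tissue label could not be checked against marker genes.

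Cux2 is a transcription factor with CUT domains and a homeodomain. It is best known as a marker of upper-layer neurons of the cerebral cortex, where it takes part in dendrite branching, spine formation and synapse formation. Mammals carry a close relative, Cux1, and more distant CUT genes such as those of the Onecut family. Methylation of CpGs is usually low at CpG-rich promoters and high in the bodies of transcribed genes. The question behind the comparisons was whether aging changes methylation at this gene and whether ENR late in life moves it the other way.

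Stretches from the parts of the locus described here are shown with the plus strand of GRCm38, 5′ to 3′, and the CG dinucleotides with a deposited value on at least 1 strand in capitals. The first holds the CpG that the study presents for Cux2, the second the CpG with the largest aging difference, the next 3 show intron 2 patches at low or intermediate methylation, and the last shows the CpG-rich sequence of the promoter cluster, upstream of the start.
CpG of the study, chr5:121938781-121938846: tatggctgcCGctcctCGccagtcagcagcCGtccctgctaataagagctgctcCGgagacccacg
Intron 2 downstream of exon 2, chr5:122043036-122043112: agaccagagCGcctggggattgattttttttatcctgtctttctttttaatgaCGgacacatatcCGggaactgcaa
Intron 2 patch of low methylation, chr5:121969178-121969318: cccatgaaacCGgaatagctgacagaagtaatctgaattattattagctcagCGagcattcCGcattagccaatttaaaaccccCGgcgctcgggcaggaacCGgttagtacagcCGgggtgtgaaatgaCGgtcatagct
Intron 2 patch of intermediate methylation, chr5:121982007-121982161: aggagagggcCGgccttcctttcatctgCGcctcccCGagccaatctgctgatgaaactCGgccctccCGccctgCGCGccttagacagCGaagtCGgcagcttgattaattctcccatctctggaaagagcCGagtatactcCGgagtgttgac
Intron 2 other patch of low methylation, chr5:121948546-121948687: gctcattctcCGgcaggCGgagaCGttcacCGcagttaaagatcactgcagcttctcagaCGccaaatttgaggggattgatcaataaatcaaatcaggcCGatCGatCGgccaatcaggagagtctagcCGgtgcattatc
Upstream of the start, chr5:122050187-122050276: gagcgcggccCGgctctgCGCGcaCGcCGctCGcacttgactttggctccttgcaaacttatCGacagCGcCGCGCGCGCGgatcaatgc
None of the 6 stretches overlaps an exon of Cux2 in GENCODE M21, and each holds between 1 and 4 MspI sites (CCGG), which set where RRBS can read.

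RRBS covered a small share of the locus. The window holds 3864 CG dinucleotides, of which 257 (6.65%) had a value on at least 1 strand and 42 on both. All 299 CpGs lay at a CG of the reference, 131 on the plus and 168 on the minus strand. They were at most 73 bp from a CCGG (median 23 bp) and formed 26 clusters separated by more than 1 kb. Of the 299, 126 lay within 1 kb of the start of any Cux2 transcript, 34 in other exonic sequence and 139 in introns. An antisense pair of genes overlaps the window. All 98 CpGs of the promoter cluster also lie within Gm15637, an antisense transcript of the opposite strand, while no CpG was measured within Gm3970 or in the end of the neighbouring gene Pheta1. A mouse had a value at 149 to 237 of the 299 CpGs in young STD mice, at 111 to 252 in aged STD mice and at 123 to 245 in aged ENR mice. Just 6 CpGs were read in each of the 24 mice and 63 in at least 5 mice of each group. Values were at 0 or 100% in 78.0% of cases, compared with 83.6% over the whole table. The number of reads behind a percentage is not in the table, so the depth of single values is unknown and no counting intervals were computed.

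The methylation of the locus followed its position in the gene. The start was nearly unmethylated, the coding exon 18 was nearly fully methylated, and the introns lay between and differed from patch to patch. The coding exon 16 was not like exon 18. Its 6 CpGs, counted within 1 kb of a start, averaged 37.5%, with CpG means from 4.25 to 70.6%. In the cluster around the main start (chr5:122048510-122050939, 98 CpGs), 87 CpGs had a mean over mice under 10% and 52 were at 0 in every mouse with a value. The other 201 CpGs held 16 with a mean under 10%, 128 between 10 and 90%, and 57 above 90%. Over the whole locus, 46.5% of CpGs had an intermediate mean between 10 and 90%, compared with 29.7% of the table.

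**Figure D1:**
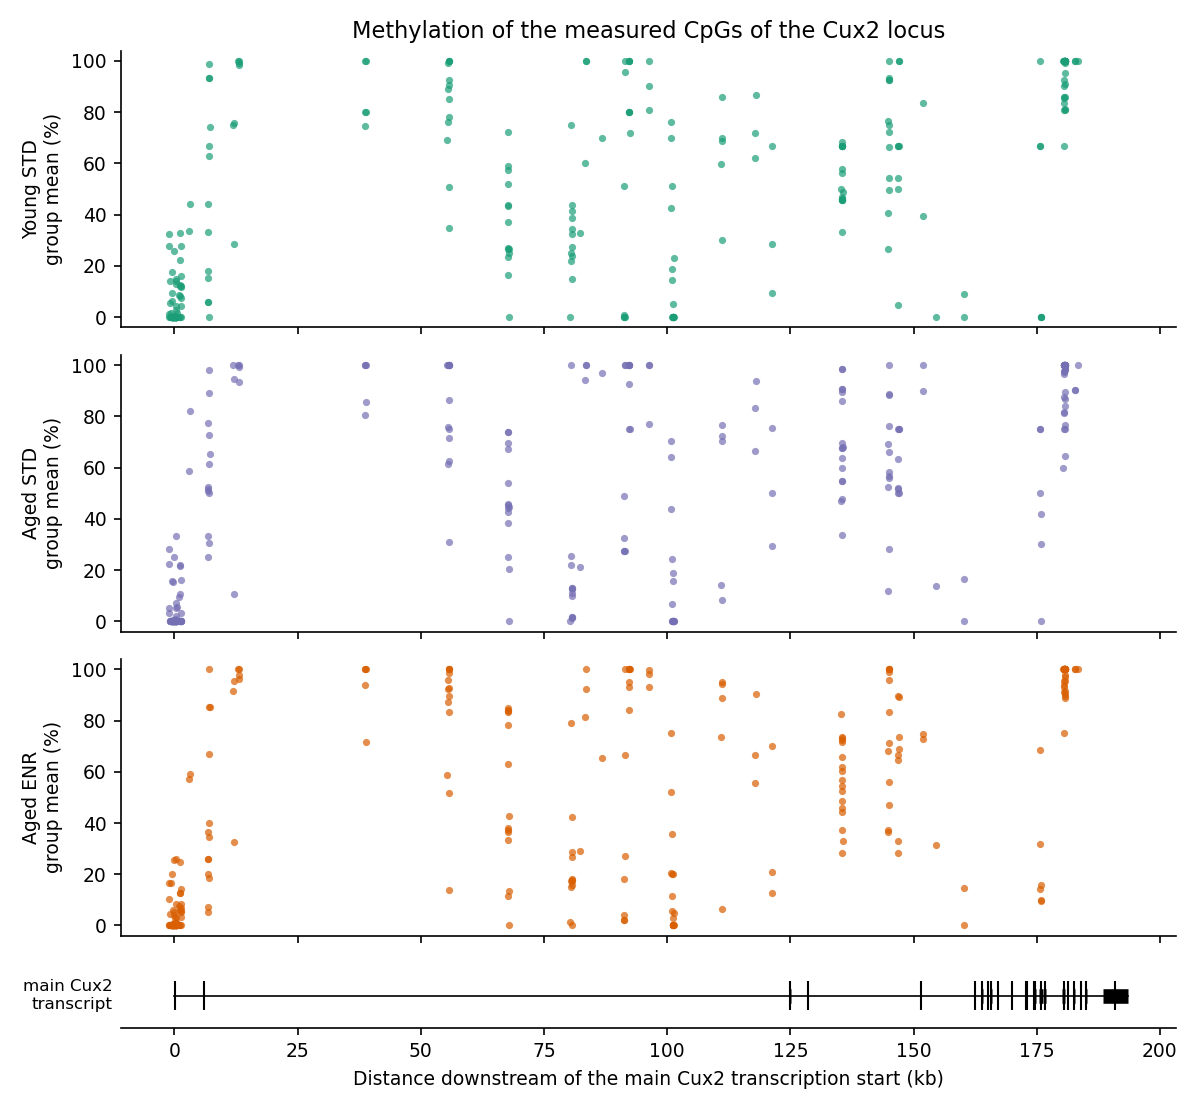
Group means of the 299 CpGs in % methylation (vertical axes, 1 panel for each group of 8 mice) against the distance in kb downstream of the main start, with the 23 exons of the main transcript drawn to scale below. In each group the CpGs around the start lie near 0%, those of exon 18 near 100%, and the intron patches between.

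To compare mice that had values at different CpGs, the level of a mouse was computed as the mean deviation of its values from each CpG's mean over mice, added to the mean of the CpG means. Over the whole locus this level was 42.3% ± 1.92 in young STD mice, 43.6% ± 3.66 in aged STD mice and 43.4% ± 3.65 in aged ENR mice (SD, n = 8 each). The groups overlapped throughout. Within 1 kb of a Cux2 start the level was 15.1% ± 3.06, 16.4% ± 3.83 and 14.1% ± 4.97 in the same order, and in introns 54.6% ± 3.70, 56.4% ± 6.11 and 57.6% ± 7.19. The order of the group means depended on the CpGs. Over the 35 CpGs read in 18 or more mice the locus level was highest in young STD mice (32.3%) and lowest in aged STD mice (26.7%, with 28.8% in aged ENR mice), and over the 15 of them in introns it was 57.5, 46.7 and 54.2% in the same order of groups as above. In the 34 exonic CpGs, which all lie in exon 18, it was 94.6% ± 3.11 (n = 7), 91.1% ± 5.76 (n = 8) and 97.1% ± 2.52 (n = 8). The aged STD mice thus had the lowest mean and the widest range in exon 18, from 79.0 to 96.7%, but this range overlapped that of the young mice. The 79.0% came from 1 mouse, aged STD replicate 1, with a value at 7 of the 34 CpGs. Without it the aged STD mean was 92.9% ± 3.23. These levels were not tested. In the promoter cluster the level was 3.81% ± 2.19, 2.34% ± 1.57 and 2.58% ± 2.29, and the means of the groups differed by less than 1 SD.

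Across the whole locus, the mean aging difference of the 299 CpGs (aged STD minus young STD) was 1.51 points and the mean ENR difference (aged ENR minus aged STD) was -0.79 points, and the median of each was 0. The study called a CpG by a difference over 25 points together with a read-level test, which cannot be run without read numbers. Here just the size was used, on differences between group means over mice, so the counts cannot be set against those of the study. By this size criterion, 44 CpGs were called with aging, 29 higher and 15 lower in aged STD mice. The balance of directions depended on the CpGs and on the criterion. Among the 63 CpGs with at least 5 mice in each group it turned, with 1 higher and 4 lower with aging and 5 higher and 3 lower with ENR, and over 40 points it was 6 and 6 with aging. Of all CpGs in the table as a whole, 9.16% met this criterion with aging, 4.15% higher and 5.01% lower, compared with 14.7% at the locus. With ENR, 40 CpGs were called, 15 higher and 25 lower in aged ENR mice, which is 13.4% of the locus compared with 8.33% of the table (3.82% higher and 4.51% lower). Between aged ENR and young STD mice, 31 CpGs were called, 17 higher and 14 lower, which is 10.4% compared with 8.43% of the table (3.43% higher and 4.99% lower). This balance also depended on the criterion. It was 17 higher and 22 lower by group medians, 2 and 3 over 40 points, 44 and 31 over 15 points, and 2 and 2 with at least 5 mice per group. The aging and ENR comparisons share the aged STD mice. Aged STD replicate 5 had the lowest mean methylation of all mice over the whole table (23.6%, with the other aged STD mice between 38.2 and 44.5%), and without it 46 CpGs were called with aging and 44 with ENR. Among CpGs with a mean between 10 and 90%, where such differences can occur in both directions, 30.2% of 139 CpGs at the locus and 28.1% of the table were called with aging, 26.6% and 25.9% with ENR, and 19.4% and 26.4% between aged ENR and young STD mice. By direction, 19.4% of these CpGs at the locus and 12.7% in the table were higher with aging, and 10.8% and 15.4% were lower. With ENR, 10.1% and 11.9% were higher and 16.5% and 14.0% lower. These shares were not tested. Of the CpGs called with aging, 29 lay in introns, 13 within 1 kb of a start and 2 in exon 18. The promoter cluster held 4 of them, among 98 CpGs.

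**Figure D2:**
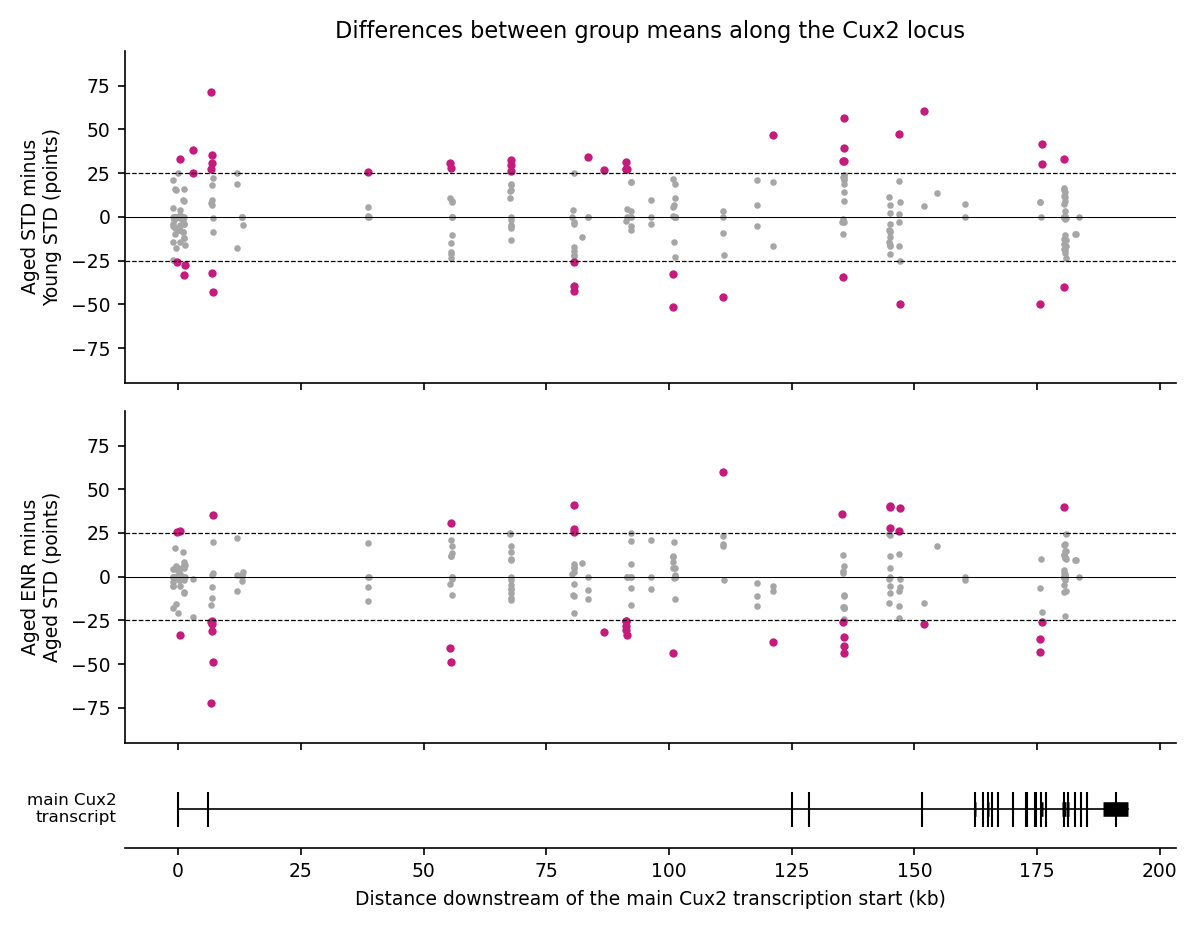
Difference between group means of each of the 299 CpGs in percentage points (upper panel aging, lower panel ENR) against the distance in kb downstream of the main start. Dashed lines mark 25 points, CpGs past them are coloured (44 with aging and 40 with ENR), and they lie in introns, near starts and in exon 18.

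The size criterion does not use the spread between mice. In a limma fit of all CpGs with mice as replicates, no CpG of the locus passed an adjusted p of 0.05 (Benjamini-Hochberg over the table) together with 25 points in any of the 3 comparisons. Among all CpGs, 0.00475% passed with aging, 0.00432% with ENR and 0.00504% between aged ENR and young STD mice. At an unadjusted p under 0.05 in limma, 9 CpGs of the locus stood out with aging (5 higher, 4 lower), 6 with ENR (2 higher, 4 lower) and 9 between aged ENR and young STD mice (3 higher, 6 lower). These are 3.01%, 2.01% and 3.01% of the locus, beside 2.23%, 1.90% and 2.18% of the table.

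The CpG that the study presents for Cux2 lies in intron 2, 111015 bp downstream of the main start (chr5:121938836, minus strand, the last CG in capitals of its stretch above). Its mean was lowest in aged STD mice. Its methylation in the 5 young STD mice with a value was 15.4, 0, 100, 83.3 and 100%, with a mean of 59.7% ± 48.3. In the 5 aged STD mice it was 0, 0, 46.3, 23.8 and 0%, with a mean of 14.0% ± 20.8. In the 6 aged ENR mice it ranged from 8.33 to 100% (median 85.9%), with a mean of 73.7% ± 36.0. All aged STD mice were under 50%, but 2 of the young and 1 of the ENR mice lay in the same range, so the groups overlapped. The aging difference was -45.7 points (two-sided exact permutation p = 0.119, 0.179 after Benjamini-Hochberg adjustment over the 3 comparisons, n = 5 and 5). The ENR difference was 59.6 points (exact permutation p = 0.0130, adjusted over the 3 comparisons 0.0390, n = 6 and 5). Aged ENR and young STD mice differed by 13.9 points (exact permutation p = 0.675, n = 6 and 5). In limma the ENR difference had an SE of 22.0 points and an adjusted p of 1. The study chose this CpG on these mice, so its p-values are not independent evidence. Without young STD replicate 4, the young mouse at 0%, the aging difference was -60.7 points (exact permutation p = 0.0476, n = 5 and 4).

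The 3 CpGs next to it on the same strand had aging differences of 0.11, 3.30 and -9.11 points. At 24 bp from it (chr5:121938812), the group means were 70.1% ± 42.9, 70.2% ± 44.6 and 88.6% ± 25.4 in the young STD, the aged STD and the aged ENR mice (n = 5 each). At 38 bp (chr5:121938798) they were 68.9% ± 40.9 (n = 5), 72.2% ± 43.8 (n = 5) and 95.2% ± 11.8 (n = 6), and at 45 bp (chr5:121938791) 85.9% ± 19.9 (n = 5), 76.8% ± 40.8 (n = 6) and 94.2% ± 12.9 (n = 5). At each of the 3 neighbours most aged STD mice were at 100%. Taken as 1 value per mouse over the 4 CpGs, the aging difference was -8.89 points (exact permutation p = 0.675, n = 6 and 5) and the ENR difference 27.7 points (exact permutation p = 0.0628, n = 6 and 6), so that with ENR the threshold was passed at the single CpG but not over the 4.

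**Figure D3:**
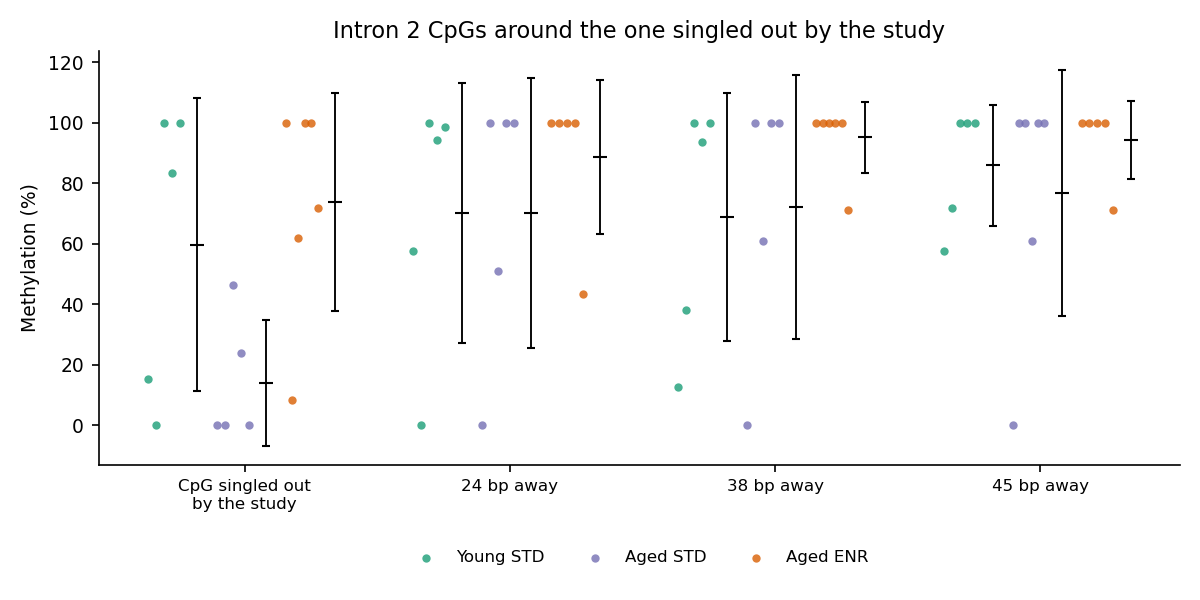
Methylation in % of each mouse (points, coloured by group) at the CpG that the study presents and at the 3 minus-strand CpGs 24, 38 and 45 bp from it, with the mean and SD of each group in black. The 5 aged STD mice lie under 50% at the first CpG, while at its neighbours most mice of each group lie near 100%.

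The CpG with the largest aging and ENR differences of all 299 lay elsewhere in intron 2, 6761 bp downstream of the main start (chr5:122043090, minus strand). It was singled out after its values were seen. Aged STD mice were high there and the other groups near 0. The 4 aged STD mice with a value were at 100, 100, 43.2 and 66.2%, with a mean of 77.3% ± 27.8. Young STD mice ranged from 0 to 34.9% (median 0), with a mean of 5.81% ± 14.2 (n = 6), and aged ENR mice were at 0, 0, 0 and 20.8%, with a mean of 5.20% ± 10.4. The aged STD mice did not overlap with either group. The difference was 71.5 points with aging (SE 11.6, limma adjusted p = 0.340) and -72.1 points with ENR (SE 12.7, limma adjusted p = 0.578). Both adjusted values miss the threshold, and 4 mice stand behind each aged mean. Without aged STD replicate 6, the lowest of the 4, the same CpG passed limma with aging (82.9 points, adjusted p = 0.0287) and with ENR (-83.5 points, adjusted p = 0.0477), whereas over all mice left out in turn its adjusted p ranged up to 0.662 and 1.

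The neighbouring CpGs had smaller differences. The CpG 12 bp away in the same stretch (chr5:122043102) had means of 5.81% ± 14.2 (n = 6), 33.1% ± 47.1 (n = 4) and 7.35% ± 14.7 (n = 4), and the one 44 bp away (chr5:122043046) had 44.3% ± 49.4, 52.4% ± 42.0 and 36.4% ± 24.3 in the same mice. A little further in the same cluster, chr5:122042789 (minus strand) was at 66.8% ± 47.0 in young STD (n = 5), 89.0% ± 26.9 in aged STD (n = 6) and 40.1% ± 39.5 in aged ENR mice (n = 5). Its ENR difference was -48.9 points (SE 22.7, limma adjusted p = 1). At chr5:122042853 (minus strand) methylation was 93.2% ± 15.2 (n = 5), 61.4% ± 49.1 (n = 6) and 34.4% ± 38.9 (n = 6), and aged ENR and young STD mice differed by -58.8 points (SE 22.9, limma adjusted p = 1). Here the mice of 1 group reached from 0 to 100%. The cluster of 13 CpGs as a whole had a level of 52.1% ± 13.6, 62.7% ± 20.4 and 49.1% ± 22.0 (n = 8 each), and these ranges overlapped. With aging it held 4 CpGs called higher and 2 called lower, and with ENR 1 higher and 6 lower.

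**Figure D4:**
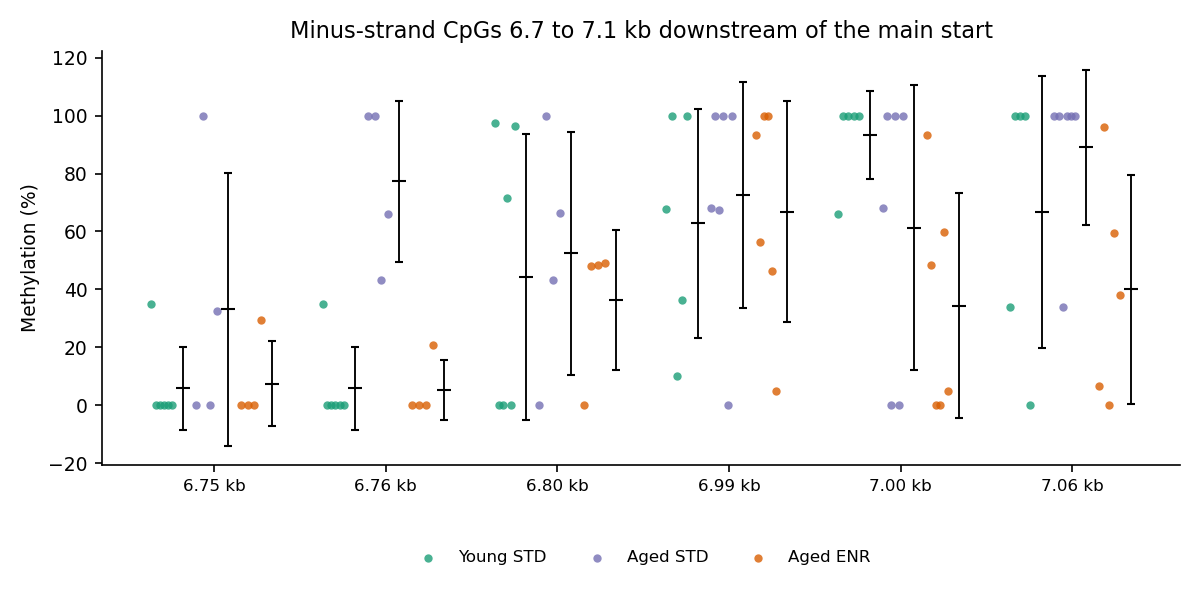
Methylation in % of each mouse (points, coloured by group) at the 6 minus-strand CpGs of the intron 2 cluster downstream of exon 2, labelled by distance in kb from the main start, with the mean and SD of each group in black. At 6.76 kb the 4 aged STD mice lie above all others, and at the other CpGs the groups overlap.

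Other patches of intron 2 had differences at several neighbouring CpGs, none of which passed limma. At the patch of low methylation 80 kb downstream of the start (chr5:121969188-121969534, 12 CpGs), the CpG chr5:121969188 (plus strand) was at 65.0, 0, 0, 73.3 and 55.3% in young STD mice (mean 38.7% ± 35.9). It was at 0 to 33.3% in 6 aged STD mice (mean 12.9% ± 14.5) and at 0 to 58.8% in 8 aged ENR mice (mean 15.6% ± 22.0). The aging difference was -25.8 points (SE 14.7, limma adjusted p = 1). On the minus strand of this patch, 4 CpGs had means of 23.99 to 43.8% for young STD, 1.39 to 13.01% for aged STD and 17.8 to 42.4% for aged ENR mice. At 1 of them, chr5:121969263, named after its values were seen, the 4 young STD mice were at 66.7, 13.9, 26.1 and 68.8%, whereas 6 aged STD mice lay between 0 and 9.30% (median 0) and 6 aged ENR mice between 0 and 100% (median 30.9%). All 4 young mice were above all 6 aged STD mice there, and the differences of -42.3 points with aging (SE 17.6) and 40.9 points with ENR (SE 15.8) both had a limma adjusted p of 1. The plus strand of the same CpG differed by -3.86 points with aging and by -10.9 points with ENR, the latter in the opposite direction. At the other CpGs of the patch measured on both strands, the strands went the same way. With aging the plus and minus strands differed by -25.8 and -19.3, by -17.2 and -22.6, and by -21.6 and -39.7 points. With ENR these were 2.74 and 4.79, 7.27 and 25.5, and 5.50 and 27.1 points. At the patch of intermediate methylation (chr5:121982017-121982151, 14 CpGs), the 7 minus-strand CpGs had means of 16.6 to 72.4% for young STD, 38.3 to 74.0% for aged STD and 38.1 to 84.8% for aged ENR mice, and 5 of them were over 25 points higher in aged ENR than in young STD mice. At 3 CpGs of this patch the plus strand was measured too. Between aged ENR and young STD mice it differed by -20.4, -15.6 and 6.25 points, where the minus strand differed by 46.6, 39.6 and 25.1 points, so that the strands went in opposite directions at the first 2. The level of the patch was 31.6% ± 18.9 (n = 8), 46.9% ± 16.1 (n = 5) and 54.0% ± 18.3 (n = 7). The other patch of low methylation (chr5:121948556-121949034) had overlapping groups, with a level of 18.7% ± 8.28 (n = 8), 17.2% ± 11.5 (n = 8) and 15.7% ± 10.8 (n = 7), and 11 of its 17 CpGs had a mean under 10%. It held chr5:121948961 (minus strand, named after its values were seen), with the largest loss with aging of all 299 CpGs. This was -51.3 points (SE 19.2, n = 3 aged STD and 5 young STD mice), and its plus strand differed by 5.38 points. Between aged ENR and young STD mice the minus strand differed by -39.7 points (SE 15.9) and the plus strand by 16.8 points.

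Runs of at least 3 consecutive CpGs called in the same direction were rare when both strands were ordered together. A cytosine of the other strand could then break a run. With aging there was 1, of 3 CpGs between chr5:121958474 and chr5:121958525 in intron 2, which were at 0 in the 3 young STD mice with a value and at 27.4% on average in 5 aged STD mice. In aged ENR mice their means were 2.08 to 27.1%. With ENR there was 1, of 4 CpGs from chr5:121958523 to chr5:121958610, with means of 27.4 to 48.8% in aged STD and 2.08 to 18.3% in aged ENR mice. In young STD mice their means were 0 to 51.1%. Both runs lie in the same cluster and overlap between chr5:121958523 and chr5:121958525, and the smallest adjusted p in either was 1 (limma). There was none between aged ENR and young STD mice. On the minus strand alone, neighbouring CpGs were called together in 2 patches described above. The 4 of the patch of low methylation held 3 called higher with ENR and 2 called lower with aging. The 7 of the patch of intermediate methylation held 3 called higher with aging and 5 called higher between aged ENR and young STD mice.

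In intron 4 and near the start, other CpGs with at least 5 mice in each group met the size criterion without passing limma. At chr5:121904886 (plus strand) methylation averaged 72.3% ± 39.0 among young STD mice, 55.9% ± 47.0 among aged STD mice and 95.7% ± 10.6 among aged ENR mice (n = 6 each). The ENR difference of 39.8 points had an SE of 20.4 points and a limma adjusted p of 1. The opposite cytosine of this CpG, chr5:121904887 (minus strand), read from the other DNA strand, was at 66.4% ± 47.0 (n = 6), 58.5% ± 42.4 (n = 5) and 98.8% ± 2.71 (n = 5), an ENR difference of 40.3 points (SE 23.4, limma adjusted p = 1). Of the 42 CpGs measured on both strands, this was the only one with both over 25 points in the same direction in any comparison. This holds for the group means and not for single mice. Within a mouse its strands differed by a median of 43.3 points (12 mice with a value on both). The median was 25.8 points over the CpGs of the locus with an intermediate mean on both strands. Aged ENR mice were at 93.9 to 100% on the minus strand, and aged STD mice at 100, 43.8, 100, 0 and 48.6%. In intron 1, chr5:122046768 (minus strand) was at 8.33, 25, 4, 97.6 and 85.7% in young STD and at 100, 100, 100, 68.4 and 42.9% in aged STD mice. The means were 44.1% ± 44.3 and 82.3% ± 25.9 (SE of the difference 23.9 points, limma adjusted p = 1), and aged ENR mice lay between them at 59.3% ± 42.2 (n = 5 each).

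Near the start, chr5:122048512 (minus strand, 1339 bp downstream, named after its values were seen) was at 0 in all 3 aged STD and all 7 aged ENR mice with a value and at 0 to 60.0% in 6 young STD mice (median 31.4%, mean 27.7% ± 24.7). Aged ENR and young STD mice differed by -27.7 points (SE 8.42, limma adjusted p = 1). At the other end of the gene, in the coding exon 16, chr5:121874187 (minus strand) had the largest difference between aged ENR and young STD mice. The 3 young STD mice were all at 100%, the 4 aged STD mice at 0, 0, 100 and 100%, and the 3 aged ENR mice at 0, 8.33 and 34.9%. The difference was -85.6 points (SE 31.1, limma adjusted p = 1), and it was also named after its values were seen.

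The 6 CpGs read in every mouse give the most complete comparison. Of these, 4 lie within 214 bp downstream of the main start in intron 1. At chr5:122049684 (plus strand) every mouse was at 0%, and at chr5:122049650 (plus strand) 23 mice were at 0% and 1 at 0.654%. At chr5:122049701 (plus strand) the highest values were 0.448% among young STD mice, 0% among aged STD mice and 17.0% among aged ENR mice. At chr5:122049637 (plus strand) values reached 49.1% in young STD (median 10.5%), 19.6% in aged STD (median 1.10%) and 17.0% in aged ENR mice (median 0%), and the means of 12.9% ± 16.3, 5.33% ± 7.78 and 3.32% ± 6.22 gave a limma adjusted p of 1 in each comparison. The remaining pair lies 69 bp apart in intron 4. At chr5:121914395 (plus strand) young STD mice ranged from 24.6 to 79.5% (mean 47.0% ± 16.5), aged STD mice from 42.9 to 100% (mean 69.6% ± 22.3) and aged ENR mice from 21.9 to 98.3% (mean 52.4% ± 25.5). The aging difference of 22.6 points (SE 10.8, limma adjusted p = 1) was below the size criterion, as was the ENR difference of -17.2 points (SE 10.8, limma adjusted p = 1). At its neighbour chr5:121914326 (plus strand) the means were 57.7% ± 19.8, 47.9% ± 10.8 and 60.2% ± 19.7, and the aging difference had the opposite sign, -9.89 points (SE 8.58, limma adjusted p = 1).

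**Figure D5:**
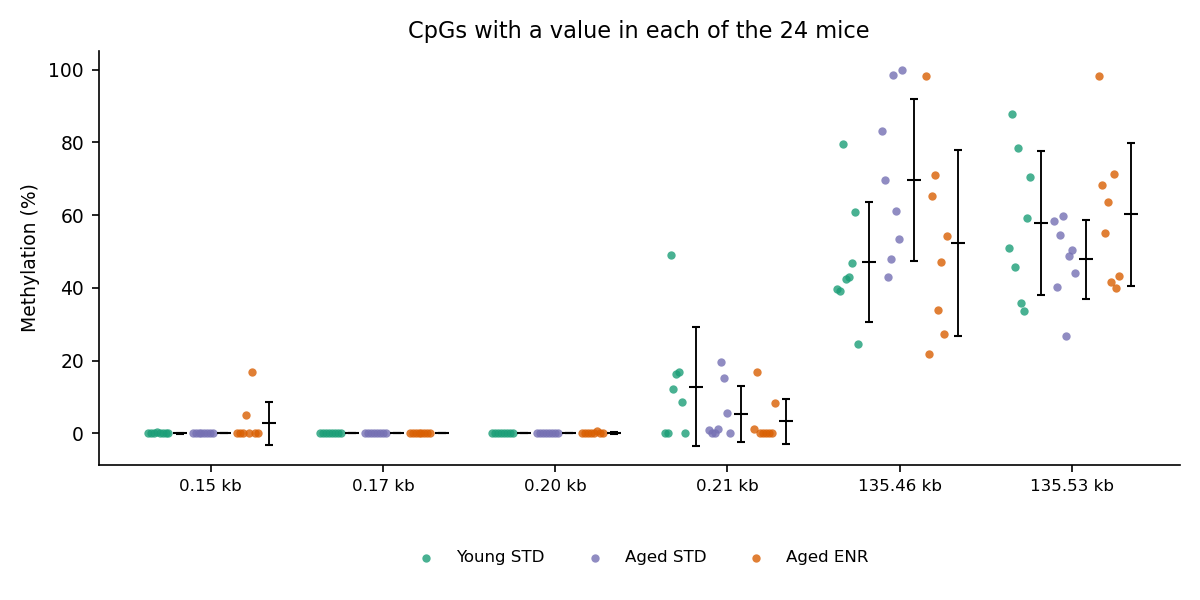
Methylation in % of each of the 24 mice (points, coloured by group) at the 6 CpGs with a value in every mouse, labelled by distance in kb from the main start, with the mean and SD of each group in black. The 4 CpGs near the start lie near 0% in most mice, and the groups overlap at both CpGs of intron 4.

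The spread between mice was large wherever methylation was intermediate. Among the 139 CpGs with a mean between 10 and 90%, the median SD over mice was 35.5 points, compared with 33.4 points over the table. At such CpGs 2 mice of the same group differed by a median of 25 points, whereas CpGs of the same strand within 75 bp of each other differed by a median of 4 points within a mouse. The strands of a CpG were less alike. At the 23 CpGs measured on both strands with an intermediate mean, the strands differed by a median of 25.8 points within a mouse (228 values), compared with 19.5 points at 12711 such CpGs of the table. Of the 42 CpGs measured on both strands, 17 were called with aging on 1 strand and none on both. With ENR, 12 were called on at least 1 strand and 1 on both. Between aged ENR and young STD mice, 12 were called on at least 1 strand, and the only one called on both had opposite directions.

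Among the CUT genes described here, Cux2 was the one with the most measured CpGs. Its closest relative Cux1 had 90, of which 7.78% were called with aging (5 higher, 2 lower) and 5.56% with ENR (1 higher, 4 lower). The Onecut genes, transcription factors of liver, pancreas and neurons, had called shares with aging of 9.90% of 101 CpGs (Onecut1), 13.4% of 119 (Onecut2) and 26.9% of 52 (Onecut3). With ENR these were 13.9%, 10.9% and 21.2%. Satb1, which organises chromatin, had 2.82% of 71 CpGs called with aging. Its mean methylation was 16.7%, compared with 43.0% at Cux2, and 4 of its CpGs were intermediate, compared with 139. Over the 24 mice, the level of the Cux2 locus correlated best with those of Tfap2a, an AP-2 transcription factor (r = 0.653), Zbtb7c, a zinc finger protein (r = 0.605), and Cacna1c, a subunit of L-type calcium channels (r = 0.602), among 716 genes with at least 100 measured CpGs, for which the median r was 0.0388. The genes share the libraries, and the values are given as a description.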

How the data were processed

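RRBS libraries of the dentate gyrus of 24 mice (8 per group) were compared. Per the methods of the authors, Trim Galore and cutadapt trimmed the reads, which were mapped to mm10 with Bismark, and CpGs were filtered by coverage with methylKit (at least 10 reads). The submitters' processing notes give Trim Galore 0.4.0, cutadapt 1.8.1, Bismark 0.16.1 and methylKit 1.5.2, and the methods of the study name other versions of Trim Galore and Bismark. The authors deposited the percent methylation of each CpG in each mouse, strands separate, for CpGs covered in 3 or more mice per group. Read numbers are not in the table, so depth is unknown. PCR duplicates cannot be recognised in it. Each column was matched to a sample by group and number.

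A group mean of a CpG was taken over the mice that had a value there. The percentages of all 694379 CpGs were fitted with limma 3.58.1 in R 4.3.3 (a mean per group, all 3 groups together, Benjamini-Hochberg over all CpGs), with adjusted p under 0.05 and over 25 points as the call. The script was tested on simulated data. Each mouse was a replicate. The CpG of the study was also compared with an exact permutation test (two-sided, on the difference of group means, scipy 1.17.1). Features came from GENCODE M21 (main transcript the full-length one of 23 exons), promoters being within 1 kb of a start, and sequences from the GRCm38 reference. CpGs named were that of the study, per comparison the 3 with the smallest limma p among those over 25 points with at least 5 mice in each group, and at most 6 with a value in all 24 mice. Others were named after their values were seen, as stated there. The members, gene lists and rules were chosen with earlier results of these data known. As alternatives, stricter numbers of mice, other thresholds, medians, an arcsine scale, other limma fits, a replicate block and leaving out each mouse were tried. No batch is given by the labels used here. CpHs were not analysed here.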

Additional observations from a re-analysis of the deposited data

Results flagged for a closer look

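In a group of 4 to 10 mice, a value was picked out where its gap to the next exceeded Dixon's critical value. Chance does this in about 1 in 20 groups, and values at 0 or 100% in nearly all mice of a group do it easily, since any other value then stands apart. Of 63 groups of mice checked, 13 held such a value.

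Most stood out against mice that were all at 0 or all at 100%. At chr5:122043090, young STD replicate 2 was at 34.9% and aged ENR replicate 8 at 20.8%, with the other mice of these groups at 0. At chr5:122049701, aged ENR replicate 6 had 17.0% and the rest 0 to 4.95%, and young STD replicate 4 had 0.448% where the rest had 0. At chr5:122049650, aged ENR replicate 6 was at 0.654%, with the others at 0. Against other mice at 100%, aged ENR replicate 8 was at 74.0% at chr5:121904886 and at 71.1% at chr5:121938798, aged ENR replicate 4 at 93.9% at chr5:121904887, aged STD replicate 5 at 34.1% at chr5:122042789, and young STD replicate 3 at 66.1% at chr5:122042853.

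In 3 further cases the other mice differed among themselves. At chr5:121904886 young STD replicate 1 had 0% and the rest 64.3 to 100%. At chr5:122049637 young STD replicate 3 had 49.1% and the rest 0 to 16.8%. Over the 98 CpGs of the promoter cluster, the level of aged ENR replicate 7 was 7.62%, with the other aged ENR mice between 0.317 and 3.10%.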

How the results depend on the processing

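The numbers of CpGs over 25 points with aging, with ENR and between aged ENR and young STD mice (44, 40 and 31) moved to 5, 8 and 4 among the 63 CpGs with at least 5 mice in each group, to 97, 82 and 75 at 15 points, and to 12, 10 and 5 at 40 points. With at least 5 mice the directions turned with aging and with ENR, as given above, and were even between aged ENR and young STD mice (2 higher and 2 lower). The cause was not tested. Leaving out each mouse gave 40 to 57, 35 to 53 and 29 to 40. The number past limma was 0 in all 3 comparisons under every other fit, by the adjusted p together with 25 points, and leaving out each mouse gave 0 to 1, 0 to 1 and 0. The 1 was reached without aged STD replicate 6, as given above.

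At the CpG of the study, the exact permutation test of the ENR difference missed the threshold over the 4 CpGs within 50 bp (27.7 points, p = 0.0628). Leaving out each mouse gave -60.7 to -35.7 points with aging (exact permutation p 0.0476 to 0.238), 54.4 to 72.7 with ENR (0.00794 to 0.0286) and -1.02 to 27.0 between aged ENR and young STD mice (0.365 to 1). The lowest of the latter was reached without young STD replicate 4. Between group medians the differences were -83.3 points with aging, 85.9 with ENR and 2.56 between aged ENR and young STD mice. The mean of both strands could not be given, since the other strand is not in the table used here.

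The replicate numbers are shared by different animals, and same-numbered mice did not deviate together (mean correlation -0.00387 over 8628 CpGs, compared with 0.000524 for other mice). With a replicate block the difference between aged ENR and young STD mice at the CpG of the study was -0.69 points (limma adjusted p = 1), and no CpG of the locus passed both criteria. The adjusted p alone was passed by chr5:122050411 (12 mice), with a blocked difference of -20.9 points with aging (limma adjusted p = 0.00873) and of -20.9 between aged ENR and young STD mice (adjusted p = 0.00745), compared with -6.15 points without the block in both. The cause was not tested.

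With only CpGs read in 18 or more mice, the locus level was 32.3, 26.7 and 28.8% in the young STD, the aged STD and the aged ENR mice, so that young mice had the highest mean in place of the lowest. The promoter level was 12.6, 12.0 and 9.73% and the intron level 57.5, 46.7 and 54.2%, with aged STD mice lowest in introns. As a plain mean over covered CpGs, the level was 39.8, 44.3 and 42.0% over the locus and 11.2, 16.8 and 13.9% at promoters in the same order, so that young mice had the lowest promoter mean in place of aged ENR mice. Depth is unknown and limits all single values.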
